A study of Mus musculus with 53 samples.

Results

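The genes described here are 7 matrix metalloproteinases (Mmp2, Mmp3, Mmp9, Mmp10, Mmp13, Mmp14 and Mmp19) and 3 tissue inhibitors of metalloproteinases (Timp1, Timp2 and Timp3). They were picked by gene symbol, and all 10 were found among the 43432 genes listed in each of 2 RNA tables. RNA had been sequenced from mouse embryonic fibroblasts (MEF), cultured connective tissue cells, either wild type (WT) or lacking ANP32E through a knockout (KO). ANP32E is a histone chaperone that takes the variant histone H2A.Z off chromatin. The question of the study is how ANP32E sets the division of H2A.Z between IAP elements, a class of retroviral repeats, and promoters. Of its 53 samples, the 22 RNA libraries were used, and the 31 CUT&Tag samples were not analysed here.

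The first table, in FPKM, held 3 libraries of KO cells given decitabine (DAC), an inhibitor of DNA methyltransferases, 2 of KO cells given the solvent DMSO, 3 of WT cells given DAC and 2 of WT cells given DMSO. The second table, in RPKM, held 3 libraries each of KO cells given an siRNA against H2AZ, KO cells given a control siRNA labelled NT, WT cells given the H2AZ siRNA and WT cells given the NT siRNA. FPKM and RPKM both divide reads by transcript length and by library size, so levels of different genes can be set side by side within a table. The labels give neither the strain, the age and the sex of the embryos, nor how many lines of each genotype were used, nor the dose and the time of either treatment. Replicates are called biological, except those of KO cells given the H2AZ siRNA, which are called only replicates. Nothing says whether replicates came from separate embryos, so p-values measure the spread between these libraries.

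Matrix metalloproteinases are zinc-dependent enzymes that are made as inactive precursors and, once activated, cleave collagens, proteoglycans and other proteins outside the cell. Timp proteins bind their active sites and block them, and a complex of Mmp14 with Timp2 at the cell surface also takes part in activating the Mmp2 precursor. In fibroblasts Mmp3, Mmp10 and Mmp13 are known as inducible genes that respond to inflammatory cytokines and growth factors through AP-1, whereas Mmp2, Mmp14 and Timp2 are known for steady expression.

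In short, Mmp3, Mmp13 and Timp1 were higher and Mmp2 was lower with DAC than with DMSO in cells of either genotype. Mmp10 was also higher with DAC, but its DAC libraries alone brought it into the test. In KO cells the treatment cannot be told apart from a difference between the cells compared, as set out below. The H2AZ siRNA raised Mmp3 and Mmp10 and lowered Timp2 in either genotype. Between genotypes, Mmp3, Mmp13, Mmp19 and Timp3 were higher and Timp1 was lower in the KO cells of the siRNA table, whichever siRNA was given. In the DAC table Mmp3, Mmp13 and Timp3 were higher and Mmp2, Mmp14, Timp1 and Timp2 lower in KO than in WT cells with DMSO. The calls of Mmp3 and Mmp2 in that comparison did not hold when some single libraries were left out. With DAC, Mmp13 and Timp3 were lower in KO cells, as were Mmp2, Mmp14 and Timp1. A difference was called where limma, fitted over all genes of a table on log2 of the value plus 1, gave a Benjamini-Hochberg adjusted p under 0.05. Log2 fold changes below are on that scale, which understates the changes of genes at low levels. In bulk RNA, fewer cells expressing a gene and less RNA per cell cannot be told apart.

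Some facts of the libraries bear on all that follows. Depth ran from 27503472 to 36910532 reads a library with DAC or DMSO and from 31928320 to 47172427 reads with siRNA. Anp32e RNA was lower in every KO library than in any WT library, at 4.87 to 7.48 FPKM in KO cells against 14 to 17.2 FPKM in WT cells, and at 4.36 to 6.12 RPKM against 16.9 to 21.4 RPKM. H2afz, a gene of H2A.Z, stood at 26.4 to 30.4 RPKM with the H2AZ siRNA against 184 to 199 RPKM with NT in KO cells, and at 16.6 to 17.5 RPKM against 199 to 203 RPKM in WT cells. Of 11 fibroblast markers, 10 or 11 had a mean of at least 1 in every group. Of 9 macrophage markers, 2 had a mean of at least 1 in every group, and all 9 summed to 9.68 to 19.1 FPKM and 3.22 to 6.76 RPKM. Most of that was Cd68, at 7.12 to 12.9 FPKM and 1.8 to 3 RPKM, and Cd14, at 0.553 to 6.37 FPKM and 1.34 to 3.71 RPKM. In KO DMSO libraries Csf1r was at 1.38 to 1.85 FPKM, above Cd14 at 0.553 to 0.786 FPKM. In the other groups of the DAC table Csf1r was at 0.227 to 0.483 FPKM. The more specific marker Adgre1 was listed at 0 in all 10 DAC table libraries and reached 0.029 RPKM at most.

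The genotypes differed in more than Anp32e. The 4 Y-linked genes summed to 9.25 to 21.5 in KO libraries and to at most 0.164 in WT libraries, over both tables, so the knockout cannot be told apart from sex and embryo of origin. The 9 mesothelial markers all had a mean of at least 1 in each KO group, against 2 or 3 of 9 in WT groups. They summed to 111 to 130 FPKM in KO DAC and 1040 to 1070 FPKM in KO DMSO libraries, against 39.1 to 50.1 FPKM in WT DAC and 10 to 12.2 FPKM in WT DMSO libraries. In the siRNA table they summed to 156 to 192 RPKM in KO libraries and 18.6 to 20.5 RPKM in WT libraries, where Wt1, one of them, was listed at 0. Of these markers, Msln went the other way with DAC, at 21.1 to 25 FPKM in KO against 26.6 to 38.5 FPKM in WT libraries. Krt19 did so with DMSO, at 1.96 to 1.98 FPKM in KO against 2.31 to 3.13 FPKM in WT libraries. The 5 smooth muscle markers summed to 158 to 196 FPKM in KO DAC and 58.7 to 60.5 FPKM in KO DMSO libraries, against 218 to 312 FPKM in WT DAC and 199 to 250 FPKM in WT DMSO libraries, and to 835 to 989 RPKM in KO against 1680 to 1880 RPKM in WT libraries with siRNA. The 6 epithelial markers summed to 15.2 to 29.9 FPKM and 29.7 to 36.8 RPKM in KO libraries, against 0.537 to 7.56 FPKM and 3.01 to 3.92 RPKM in WT libraries. Most of the KO sums was Krt18 alone, at 10.4 to 23.3 FPKM and 28.4 to 35.3 RPKM. With siRNA only 1 of the 6 had a mean of at least 1 in any group. The 9 chondrocyte and bone markers summed to 26 to 37.2 FPKM and 7.34 to 9.8 RPKM in KO libraries, against 50.5 to 68.2 FPKM and 17.4 to 27.5 RPKM in WT libraries. Much of that difference was Col10a1, at 4.16 to 9.37 FPKM and 5.16 to 7.91 RPKM in KO libraries. WT libraries had it at 27.2 to 45.5 FPKM and 15.7 to 25.8 RPKM. Sox9 went the other way with DAC, at 15.1 to 16.6 FPKM in KO against 7.23 to 7.93 FPKM in WT libraries. It did so with siRNA too, at 0.894 to 1.08 RPKM against 0.273 to 0.447 RPKM. The 2 KO DMSO libraries stood apart from all other libraries of their table on the first principal component, at 66.8 and 66.2 against -29.9 to -1.88. KO DAC and KO DMSO libraries also differed in the Y-linked sum, at 18.7 to 21.5 FPKM and 10.1 to 11.3 FPKM, and in Xist, at 28.5 to 44.4 FPKM and 0.579 to 0.923 FPKM. Nothing in the labels says that they came from the same cells, so in every comparison of KO DAC with KO DMSO, and in every difference of DAC responses, the treatment and a difference in cells cannot be told apart. The part of these differences in the Mmp and Timp values was not tested.

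**Figure D1:**
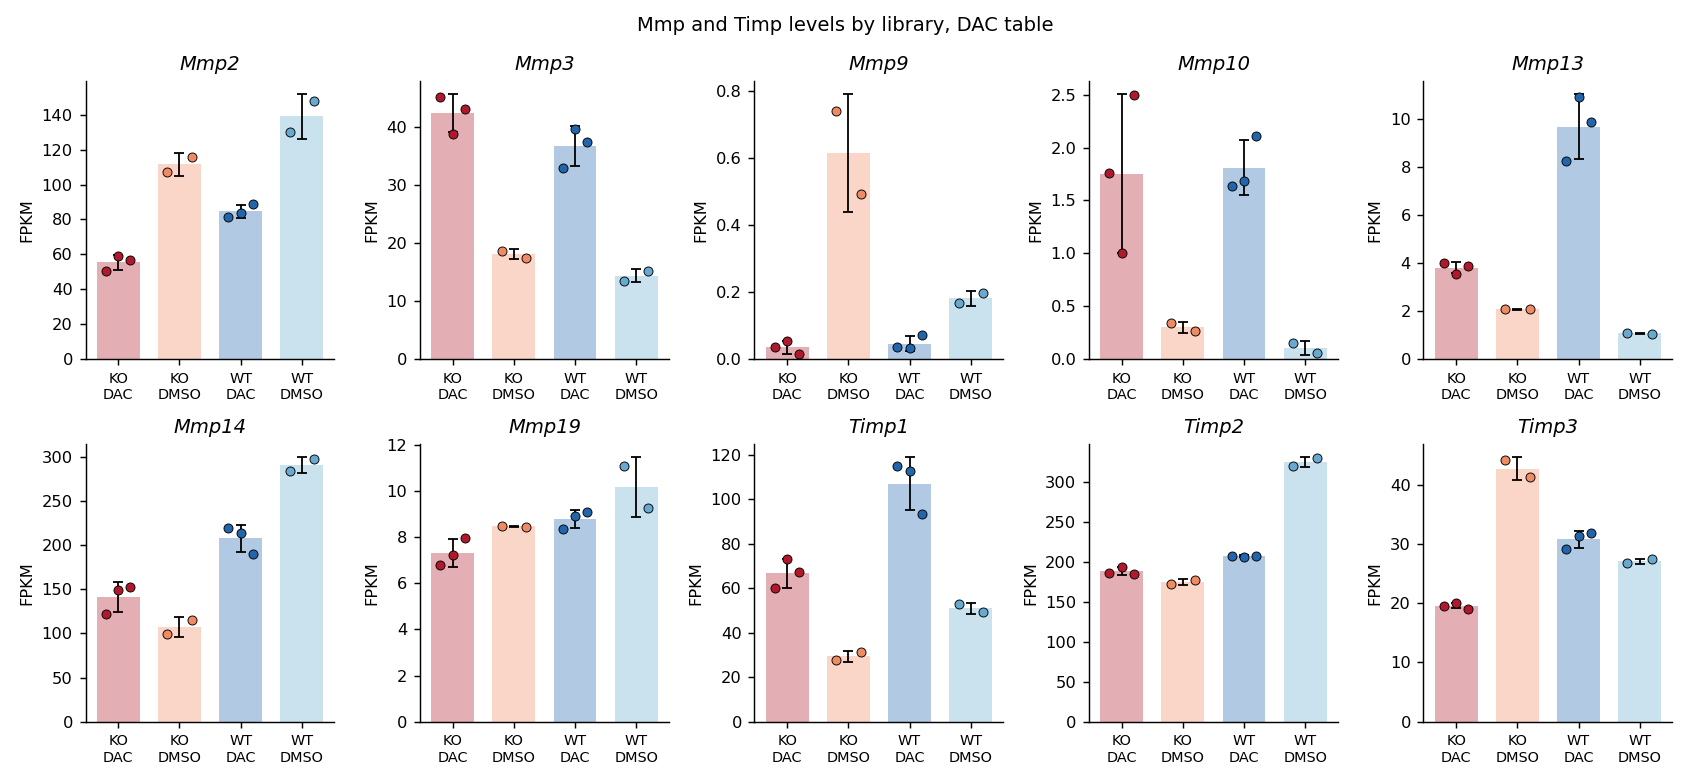
Levels of the 10 genes in FPKM (vertical axes, each from 0) in the 4 groups of the DAC table. Points are libraries, bars are means and error bars are SDs (n = 3 for DAC, n = 2 for DMSO); Mmp13 reached 8.24 to 10.9 FPKM in WT DAC and stayed at 3.98 FPKM or below in the other groups.

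**Figure D2:**
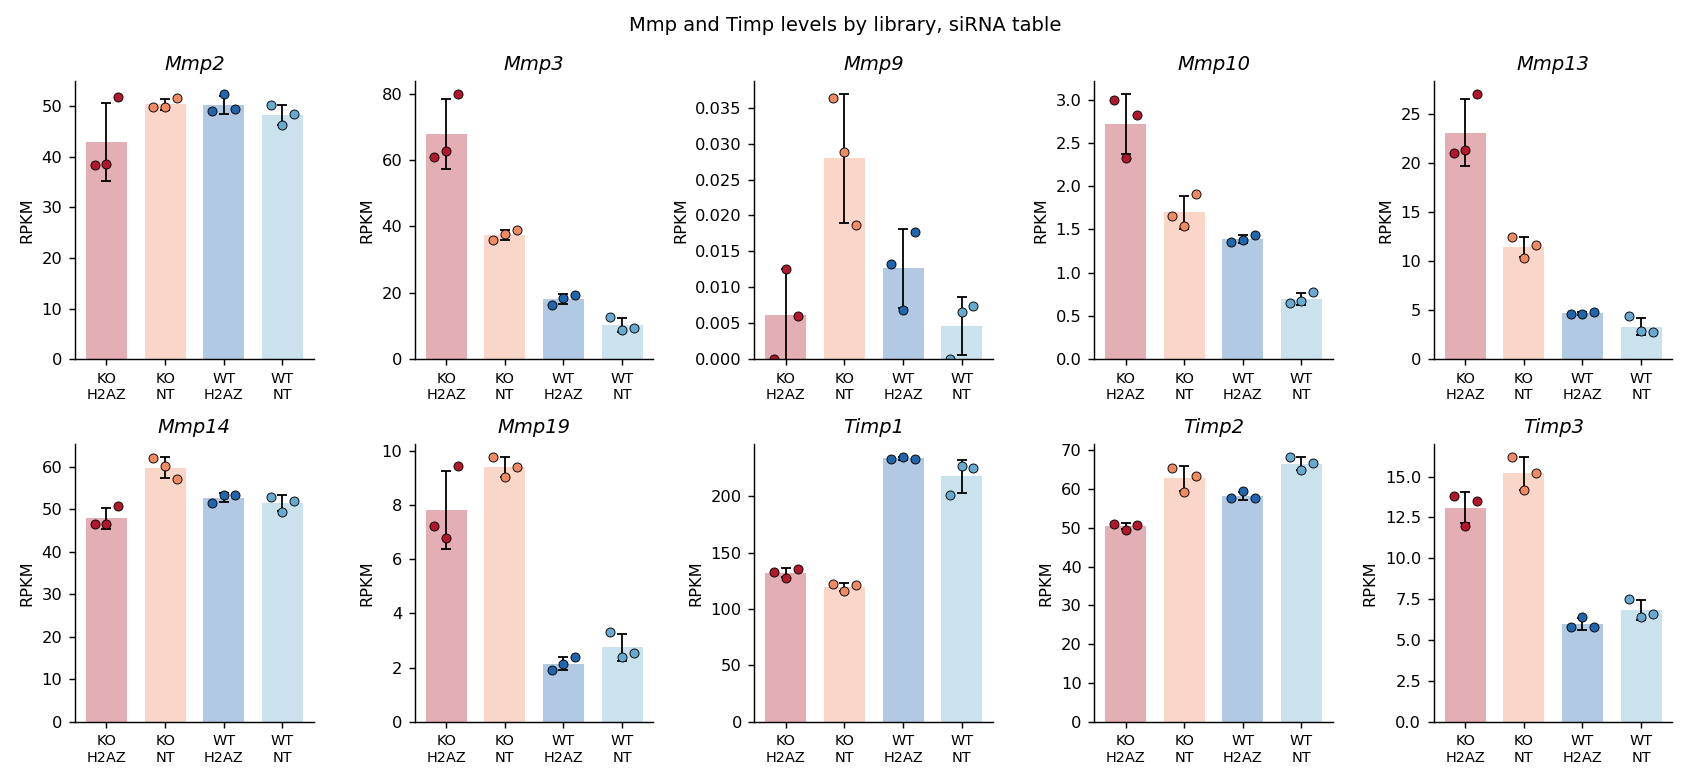
Levels of the 10 genes in RPKM (vertical axes, each from 0) in the 4 groups of the siRNA table. Points are libraries, bars are means and error bars are SDs (n = 3 each); Mmp3 and Mmp13 were higher in all 6 KO libraries than in any WT library, and Timp1 was lower in all of them.

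The stromelysins Mmp3 and Mmp10 cleave proteoglycans, fibronectin and other matrix proteins and activate other Mmp precursors, and the collagenase Mmp13 cuts fibrillar collagen. Their genes lie close together on chromosome 9 in mm10, Mmp13 at 7272514 to 7283333, Mmp3 at 7445822 to 7455975 and Mmp10 at 7502342 to 7510242. Their promoters are shown because the 3 genes were higher with DAC and because each holds the same pair of motifs. Mmp10 was brought into the test of that table by its DAC libraries alone. Since the windows were picked for these motifs, the shares of all windows given below are no test of them. RefSeq promoter windows of GRCm38.p6 (mm10), from 250 bases before to 50 bases after the start site, were found for 7 of the 10 genes. Mmp2, Mmp9 and Mmp19 had no entry. All 3 windows below are on the plus strand, at chr9:7445572-7445871 for Mmp3, chr9:7502092-7502391 for Mmp10 and chr9:7272264-7272563 for Mmp13. Capitals mark the AP-1 motif, TGAGTCA on either strand, and the TATA box motif, spelt TATAAA and searched on either strand too.
Mmp3: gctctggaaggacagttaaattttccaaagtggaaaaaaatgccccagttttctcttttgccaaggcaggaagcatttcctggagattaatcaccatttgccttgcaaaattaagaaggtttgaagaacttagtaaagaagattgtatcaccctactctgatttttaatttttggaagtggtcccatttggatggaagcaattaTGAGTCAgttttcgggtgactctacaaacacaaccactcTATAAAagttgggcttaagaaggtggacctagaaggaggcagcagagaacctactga
Mmp10: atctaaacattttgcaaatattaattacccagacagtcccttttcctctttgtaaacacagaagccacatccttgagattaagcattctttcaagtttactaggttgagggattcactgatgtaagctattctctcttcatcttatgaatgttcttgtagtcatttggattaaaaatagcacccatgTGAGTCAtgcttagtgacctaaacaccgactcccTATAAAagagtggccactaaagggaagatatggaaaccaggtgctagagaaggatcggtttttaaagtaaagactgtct
Mmp13: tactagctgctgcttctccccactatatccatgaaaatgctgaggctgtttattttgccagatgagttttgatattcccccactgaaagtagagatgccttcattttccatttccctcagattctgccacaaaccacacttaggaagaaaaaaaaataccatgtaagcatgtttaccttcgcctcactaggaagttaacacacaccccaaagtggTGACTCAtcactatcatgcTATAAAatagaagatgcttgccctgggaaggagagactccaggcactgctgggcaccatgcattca

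The AP-1 motif began 46 bases before the start site in Mmp3, 63 bases before it in Mmp10 and 35 bases before it in Mmp13. TATAAA began 7 bases before the start site in Mmp3, 29 in Mmp10 and 16 in Mmp13. These distances are from RefSeq start sites, which were not checked. TGAGTCA, on either strand, occurred in 5.21% of the 32807 RefSeq promoter windows of this length, and together with TATAAA in 0.939%. None of the other 4 windows found (Mmp14, Timp1, Timp2 and Timp3) held it in this exact spelling. Spellings that differ were not searched for, such as TGAGTAA in the Timp1 window. The motif AGGAAG, bound by Ets factors, was searched on either strand as well and lay in 35.4% of all windows, in Mmp3, Mmp13, Mmp14, Timp1 and Timp3 but not in Mmp10 or Timp2. The GC box GGGCGG lay in 35.6% of all windows, in none of Mmp3, Mmp10 and Mmp13 and in each of the other 4. The windows of Mmp3, Mmp10 and Mmp13 were also poor in CpG, the sequence that DNA methyltransferases act on. Mmp3 held 1 CpG, Mmp10 held 2 and Mmp13 held 1, against a median of 7 over all windows, 8 in Timp1 and 10 in Mmp14. By contrast, Timp2 held 25 and Timp3 held 24, and the Timp3 window, on the plus strand at chr10:86300162-86300461, is given with each CpG in capitals.
Timp3: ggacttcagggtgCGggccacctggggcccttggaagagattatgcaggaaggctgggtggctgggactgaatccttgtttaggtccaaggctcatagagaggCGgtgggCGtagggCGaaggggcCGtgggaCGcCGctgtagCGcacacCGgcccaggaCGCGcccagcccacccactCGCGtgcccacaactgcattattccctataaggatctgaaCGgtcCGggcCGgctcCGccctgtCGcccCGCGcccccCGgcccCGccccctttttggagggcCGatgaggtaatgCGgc
Such matches describe letters only, and neither binding nor methylation of these promoters was measured in the RNA tables.

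Mmp3 was higher with DAC than with DMSO in cells of either genotype. Mmp3 had 45.1, 38.8 and 43.1 FPKM in KO DAC libraries, against 18.6 and 17.4 FPKM in KO DMSO libraries. In WT cells it had 32.8, 39.6 and 37.4 FPKM with DAC, against 13.5 and 15.1 FPKM with DMSO. Every DAC library thus lay above every DMSO library. The log2 fold change was 1.19 ± 0.09 in KO cells (SE, adjusted p 1.6e-05) and 1.29 ± 0.09 in WT cells (adjusted p 3.6e-05), and the difference between these responses, at -0.11 ± 0.13, was not called (adjusted p 0.62). By level the groups ran from KO DAC (42.3 ± 3.2 FPKM, SD) and WT DAC (36.6 ± 3.45), whose libraries overlapped, to KO DMSO (18 ± 0.882) and WT DMSO (14.3 ± 1.07). KO DMSO lay above WT DMSO by 0.32 ± 0.10 with an adjusted p of 0.036. It was not called with no minimum value (adjusted p 0.058), with the replicate number as a block (0.074) or by limma-voom (0.051). That call was lost without any 1 of the 4 DMSO libraries, at adjusted p 0.053 to 0.19.

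With siRNA, Mmp3 separated all 4 groups. It had 60.9, 62.8 and 79.9 RPKM in KO cells given the H2AZ siRNA, against 36.0, 37.6 and 39.0 RPKM in KO cells given NT. WT cells had 16.3, 18.5 and 19.2 RPKM with the H2AZ siRNA, against 12.6, 8.76 and 9.39 RPKM with NT. No group overlapped another. KO cells were higher than WT cells by 1.79 ± 0.13 with NT (adjusted p 4.3e-07) and by 1.85 ± 0.13 with the H2AZ siRNA (adjusted p 3.4e-07). The H2AZ siRNA raised Mmp3 by 0.83 ± 0.13 in KO cells (adjusted p 0.00086) and by 0.77 ± 0.13 in WT cells (adjusted p 0.0024), and the difference of 0.06 ± 0.18 between these was not called.

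Mmp10 ran at far lower levels with a pattern like that of Mmp3. It had 1.76, 1 and 2.50 FPKM in KO DAC libraries, against 0.338 and 0.262 FPKM in KO DMSO libraries, and 1.64, 1.68 and 2.11 FPKM in WT DAC libraries, against 0.152 and 0.055 FPKM in WT DMSO libraries. The WT DMSO values rest on 8 and 3 reads. The log2 fold change with DAC was 1.05 ± 0.21 in KO cells (adjusted p 0.0033) and 1.34 ± 0.21 in WT cells (adjusted p 0.0017). Mmp10 entered the test of that table only through its DAC libraries, so it had to differ between DAC and DMSO. The 2 DAC groups overlapped, and KO DMSO lay above WT DMSO without being called (0.24 ± 0.23).

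With siRNA, Mmp10 had 3.00, 2.33 and 2.82 RPKM in KO cells given the H2AZ siRNA, against 1.65, 1.54 and 1.91 RPKM in KO cells given NT. WT cells had 1.35, 1.38 and 1.44 RPKM with the H2AZ siRNA, against 0.643, 0.669 and 0.778 RPKM with NT. The 4 groups kept the order of Mmp3 and did not overlap. The H2AZ siRNA raised Mmp10 by 0.46 ± 0.08 in KO cells (adjusted p 0.0016) and by 0.49 ± 0.08 in WT cells (adjusted p 0.002). KO cells were higher by 0.67 ± 0.08 with NT and by 0.63 ± 0.08 with the H2AZ siRNA.

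Mmp13 was the gene whose response to DAC differed most between genotypes. It had 3.98, 3.55 and 3.88 FPKM in KO DAC libraries, against 2.07 and 2.06 FPKM in KO DMSO libraries. WT DAC libraries had 8.24, 10.9 and 9.87 FPKM, against 1.08 and 1.05 FPKM in WT DMSO libraries. The 4 groups were apart from each other, and the order of the genotypes turned round between treatments: KO was above WT with DMSO (0.57 ± 0.12, adjusted p 0.004) and below it with DAC (-1.14 ± 0.09, adjusted p 8e-05). Mmp13 was higher with DAC than with DMSO by 0.65 ± 0.11 in KO cells (adjusted p 0.0011) and by 2.36 ± 0.11 in WT cells (adjusted p 5e-06). The difference of these responses was -1.71 ± 0.15 (adjusted p 7.7e-05).

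With siRNA, Mmp13 had 21.0, 21.3 and 27.0 RPKM in KO cells given the H2AZ siRNA, against 12.4, 10.3 and 11.6 RPKM in KO cells given NT. WT cells had 4.60, 4.57 and 4.77 RPKM with the H2AZ siRNA, against 4.34, 2.85 and 2.73 RPKM with NT. All KO libraries were above all WT libraries, by 1.54 ± 0.13 with NT (adjusted p 2.2e-06) and by 2.09 ± 0.13 with the H2AZ siRNA (adjusted p 1.9e-07). Within KO cells the siRNA raised Mmp13 by 0.95 ± 0.13 (adjusted p 0.00054). In WT cells the value was 0.41 ± 0.13 (adjusted p 0.058), and it was called without WT NT replicate 1 (0.58, adjusted p 0.0072) and with median centring (adjusted p 0.015). The difference of the responses, 0.54 ± 0.19, was not called (adjusted p 0.44).

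The other Mmp genes of the chromosome 9 cluster were near 0. Mmp1a, Mmp1b, Mmp7, Mmp8, Mmp12, Mmp20 and Mmp27 reached at most 0.112 FPKM and 0.393 RPKM.

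The gelatinases Mmp2 and Mmp9 cleave denatured collagen and basement membrane collagen. Mmp2 (chromosome 8, 92827290 to 92853421) was among the most abundant genes of the group and moved the opposite way to Mmp3 with DAC. It had 50.7, 59.0 and 56.9 FPKM in KO DAC libraries, against 107 and 116 FPKM in KO DMSO libraries. WT DAC libraries had 81.5, 83.5 and 89.0 FPKM, against 130 and 148 FPKM in WT DMSO libraries. No group overlapped another. Mmp2 was lower with DAC than with DMSO in KO cells (log2 fold change -1.0 ± 0.08, adjusted p 2.3e-05) and in WT cells (-0.70 ± 0.08, adjusted p 0.00044). KO cells were lower than WT cells with DAC (-0.60 ± 0.08, adjusted p 0.00075). With DMSO the KO value was -0.31 ± 0.09 (adjusted p 0.026), a call that was lost without KO DMSO replicate 1 (adjusted p 0.15) or WT DMSO replicate 2 (0.17).

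The siRNA table showed Mmp2 at like levels in its groups. It had 38.5, 38.6 and 51.9 RPKM in KO cells given the H2AZ siRNA and 49.8, 49.8 and 51.7 RPKM in KO cells given NT, with 49.1, 52.4 and 49.4 RPKM in WT cells given the H2AZ siRNA and 50.3, 46.3 and 48.5 RPKM in WT cells given NT. KO H2AZ replicate 3 lay among the other groups while replicates 1 and 2 lay below all of them. With the H2AZ siRNA, KO against WT was -0.24 ± 0.09 (adjusted p 0.043). That call did not hold without KO H2AZ replicate 1 (adjusted p 0.16) or 2 (0.17), nor without any of the 3 WT H2AZ libraries (0.068 to 0.12), nor with each library centred on its median (-0.08, adjusted p 0.47). KO H2AZ against KO NT was -0.24 ± 0.09 and not called (adjusted p 0.08), but -0.38 without KO H2AZ replicate 3 (adjusted p 0.00073).

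Mmp9 (chromosome 2, 164940326 to 164955850) was under the minimum value of the test in both tables. It had 0.740 and 0.492 FPKM in KO DMSO libraries, from 72 and 54 reads, and 0.166 to 0.198 FPKM in WT DMSO libraries. With DAC it had 0.0153 to 0.0543 FPKM in KO cells and 0.0334 to 0.0706 FPKM in WT cells. Fitted with no minimum value, KO DMSO was above WT DMSO by 0.45 ± 0.07 (adjusted p 0.0016) and KO DAC was below KO DMSO, at -0.64 ± 0.06 (adjusted p 0.00013). With siRNA it had at most 5 reads in any library (0.0364 RPKM or less).

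Mmp14 is anchored in the cell membrane, cuts collagen at the cell surface and activates the Mmp2 precursor. It lies on chromosome 14 at 54431598 to 54442456. It was lower in KO than in WT cells of the DAC table. With DAC it was above its DMSO level in KO cells and below it in WT cells. Mmp14 had 122, 149 and 153 FPKM in KO DAC libraries, against 99.1 and 115 FPKM in KO DMSO libraries. WT DAC libraries had 219, 214 and 190 FPKM, against 284 and 297 FPKM in WT DMSO libraries. KO and WT libraries did not overlap under either treatment, with a difference of -1.44 ± 0.12 with DMSO (adjusted p 2.3e-05) and -0.55 ± 0.10 with DAC (adjusted p 0.005).

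The DAC response of Mmp14 was 0.40 ± 0.11 in KO cells (adjusted p 0.018) and -0.49 ± 0.11 in WT cells (adjusted p 0.012), and these responses differed by 0.88 ± 0.16 (adjusted p 0.004). Taken alone, neither response was firm. The KO call was lost without KO DAC replicate 2 or 3 (adjusted p 0.057 each) or KO DMSO replicate 1 (0.15), and the WT call without WT DMSO replicate 2 (0.087).

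Mmp14 in the siRNA table had 46.6, 46.5 and 50.8 RPKM in KO cells given the H2AZ siRNA, against 62.1, 60.3 and 57.1 RPKM in KO cells given NT, and these groups did not overlap. WT cells had 51.5, 53.4 and 53.4 RPKM with the H2AZ siRNA and 52.9, 49.4 and 52.1 RPKM with NT, which overlapped. The siRNA lowered Mmp14 in KO cells (-0.31 ± 0.05, adjusted p 0.00097), and the WT value was 0.04 ± 0.05 (adjusted p 0.66). The difference of the responses, -0.35 ± 0.07, was not called over all genes (adjusted p 0.18). With NT, KO cells were above WT cells by 0.21 ± 0.05 (adjusted p 0.0024). With the H2AZ siRNA they were below, at -0.14 ± 0.05 (adjusted p 0.029), a sign that turned to 0.02 with median centring and a call that was lost without KO H2AZ replicate 1 or 2 or WT H2AZ replicate 2 or 3 (adjusted p 0.078 to 0.098).

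Mmp19, a secreted enzyme that cuts basement membrane proteins, lies on chromosome 10 at 128790910 to 128800827. In the DAC table it varied little, with 6.78, 7.23 and 7.97 FPKM in KO DAC libraries, 8.49 and 8.46 FPKM in KO DMSO libraries, 8.35, 8.90 and 9.10 FPKM in WT DAC libraries and 11.1 and 9.27 FPKM in WT DMSO libraries. Each of its 4 values in that table lay between -0.23 and -0.19 and none was called (adjusted p 0.065 to 0.15); without WT DMSO replicate 2, KO DMSO against WT DMSO was called at -0.35 (adjusted p 0.033).

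With siRNA, Mmp19 split by genotype. It had 7.22, 6.77 and 9.44 RPKM in KO cells given the H2AZ siRNA and 9.77, 9.04 and 9.40 RPKM in KO cells given NT, with 1.92, 2.13 and 2.39 RPKM in WT cells given the H2AZ siRNA and 3.32, 2.40 and 2.52 RPKM in WT cells given NT. The lowest KO library was above the highest WT library. KO cells were higher by 1.48 ± 0.11 with NT (adjusted p 1e-06) and by 1.47 ± 0.11 with the H2AZ siRNA (adjusted p 1.1e-06). The siRNA values of -0.25 ± 0.11 in KO cells and -0.24 ± 0.11 in WT cells were not called, although the KO value was -0.38 without KO H2AZ replicate 3 (adjusted p 0.023).

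Timp1 is the inducible inhibitor of the family and binds the Mmp9 precursor. It lies on the X chromosome at 20870166 to 20874737, within the interval of Syn1. Timp1 moved with Mmp3 under DAC and against it between genotypes. It had 60.2, 73.2 and 67.2 FPKM in KO DAC libraries, against 27.8 and 31.3 FPKM in KO DMSO libraries. WT DAC libraries had 115, 113 and 93.3 FPKM, against 52.8 and 49.2 FPKM in WT DMSO libraries. No group overlapped another. Timp1 was higher with DAC than with DMSO by 1.15 ± 0.11 in KO cells (adjusted p 5.5e-05) and by 1.05 ± 0.11 in WT cells (adjusted p 0.00024). KO cells were lower, at -0.77 ± 0.12 with DMSO (adjusted p 0.001) and -0.67 ± 0.10 with DAC (adjusted p 0.0019).

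Timp1 in the siRNA table had the highest level of the 10 genes in every group. It had 133, 128 and 136 RPKM in KO cells given the H2AZ siRNA and 122, 116 and 121 RPKM in KO cells given NT, with 233, 235 and 233 RPKM in WT cells given the H2AZ siRNA and 201, 227 and 225 RPKM in WT cells given NT. The highest KO library was below the lowest WT library. KO against WT was -0.86 ± 0.05 with NT (adjusted p 7.6e-08) and -0.82 ± 0.05 with the H2AZ siRNA (adjusted p 1.1e-07). With the H2AZ siRNA it was 0.14 ± 0.05 in KO cells (adjusted p 0.054) and 0.10 ± 0.05 in WT cells (adjusted p 0.19). A fit of the KO groups alone with the replicate number as a block, which paired these libraries, called the KO value (adjusted p 0.048). Because Timp1 is X-linked, the sex difference of the genotypes stands beside these values. X-inactivation RNA Xist was at 28.5 to 44.4 FPKM in KO DAC and 0.579 to 0.923 FPKM in KO DMSO libraries, against 136 to 210 FPKM in WT DAC and 170 to 181 FPKM in WT DMSO libraries, and at 0 to 0.00144 RPKM in KO against 4.12 to 6.33 RPKM in WT libraries with siRNA. Its part was not tested.

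Timp2, the inhibitor that links Mmp14 to the Mmp2 precursor, lies on chromosome 11 at 118301061 to 118355411. It had 187, 194 and 185 FPKM in KO DAC libraries and 173 and 178 FPKM in KO DMSO libraries, with 208, 206 and 208 FPKM in WT DAC libraries and 321 and 330 FPKM in WT DMSO libraries. The WT DMSO libraries stood far above the other 8. KO against WT was -0.89 ± 0.05 with DMSO (adjusted p 2.7e-06) and -0.14 ± 0.04 with DAC (adjusted p 0.053, and 0.04 by limma-voom on the recovered reads). DAC lowered Timp2 in WT cells (-0.65 ± 0.05, adjusted p 3.9e-05), and its value in KO cells was 0.11 ± 0.05 (adjusted p 0.10, and 0.039 with median centring). These responses differed by 0.76 ± 0.07 (adjusted p 9.1e-05).

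The siRNA table held a narrower range of Timp2. It had 50.9, 49.5 and 50.7 RPKM in KO cells given the H2AZ siRNA, against 65.5, 59.3 and 63.4 RPKM in KO cells given NT. WT cells had 57.6, 59.4 and 57.6 RPKM with the H2AZ siRNA, against 68.2, 64.8 and 66.6 RPKM with NT. The siRNA lowered Timp2 in KO cells (-0.31 ± 0.04, adjusted p 0.00048) and in WT cells (-0.19 ± 0.04, adjusted p 0.012). KO against WT was -0.21 ± 0.04 with the H2AZ siRNA (adjusted p 0.0013), which was no longer called with median centring (-0.05, adjusted p 0.30). With NT it was -0.09 ± 0.04, which was not called and had the opposite sign with median centring (0.04).

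Timp3 is held in the matrix and also inhibits ADAM and ADAMTS enzymes. It lies on chromosome 10 at 86300412 to 86349505, within the interval of Syn3. It had 19.6, 20 and 19.1 FPKM in KO DAC libraries, against 44.1 and 41.3 FPKM in KO DMSO libraries. WT DAC libraries had 29.2, 31.4 and 31.8 FPKM, against 26.8 and 27.4 FPKM in WT DMSO libraries. The KO groups were thus the lowest and the highest of the table. Timp3 was lower with DAC than with DMSO in KO cells (-1.09 ± 0.05, adjusted p 1.1e-06). In WT cells the value was 0.18 ± 0.05 (adjusted p 0.041), a call lost without WT DAC replicate 2 or 3 or either WT DMSO library (adjusted p 0.077 to 0.18). These responses differed by -1.26 ± 0.08 (adjusted p 1.3e-05). KO was above WT by 0.64 ± 0.06 with DMSO (adjusted p 4.2e-05) and below it with DAC, at -0.63 ± 0.05 (adjusted p 5.5e-05).

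Timp3 in the siRNA table had 13.8, 12 and 13.5 RPKM in KO cells given the H2AZ siRNA and 16.2, 14.2 and 15.2 RPKM in KO cells given NT, with 5.77, 6.41 and 5.78 RPKM in WT cells given the H2AZ siRNA and 7.52, 6.39 and 6.62 RPKM in WT cells given NT. KO libraries were all above WT libraries, by 1.05 ± 0.07 with NT (adjusted p 4.6e-07) and 1.01 ± 0.07 with the H2AZ siRNA (adjusted p 6.1e-07). The siRNA values, -0.20 ± 0.07 in KO cells and -0.17 ± 0.07 in WT cells, were not called, but the paired fit of the KO groups called the first of them (adjusted p 0.036). Whether exons of Timp1 and Timp3 overlap exons of Syn1 and Syn3 was not checked. Only where they do could reads of these genes be mixed, if strand was not used in counting, which is not stated. Syn1 was at 0.998 to 2.15 FPKM and 0.0143 to 0.0616 RPKM, and Syn3 at 0.179 to 0.835 FPKM and 0.0069 to 0.0419 RPKM.

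**Figure D3:**
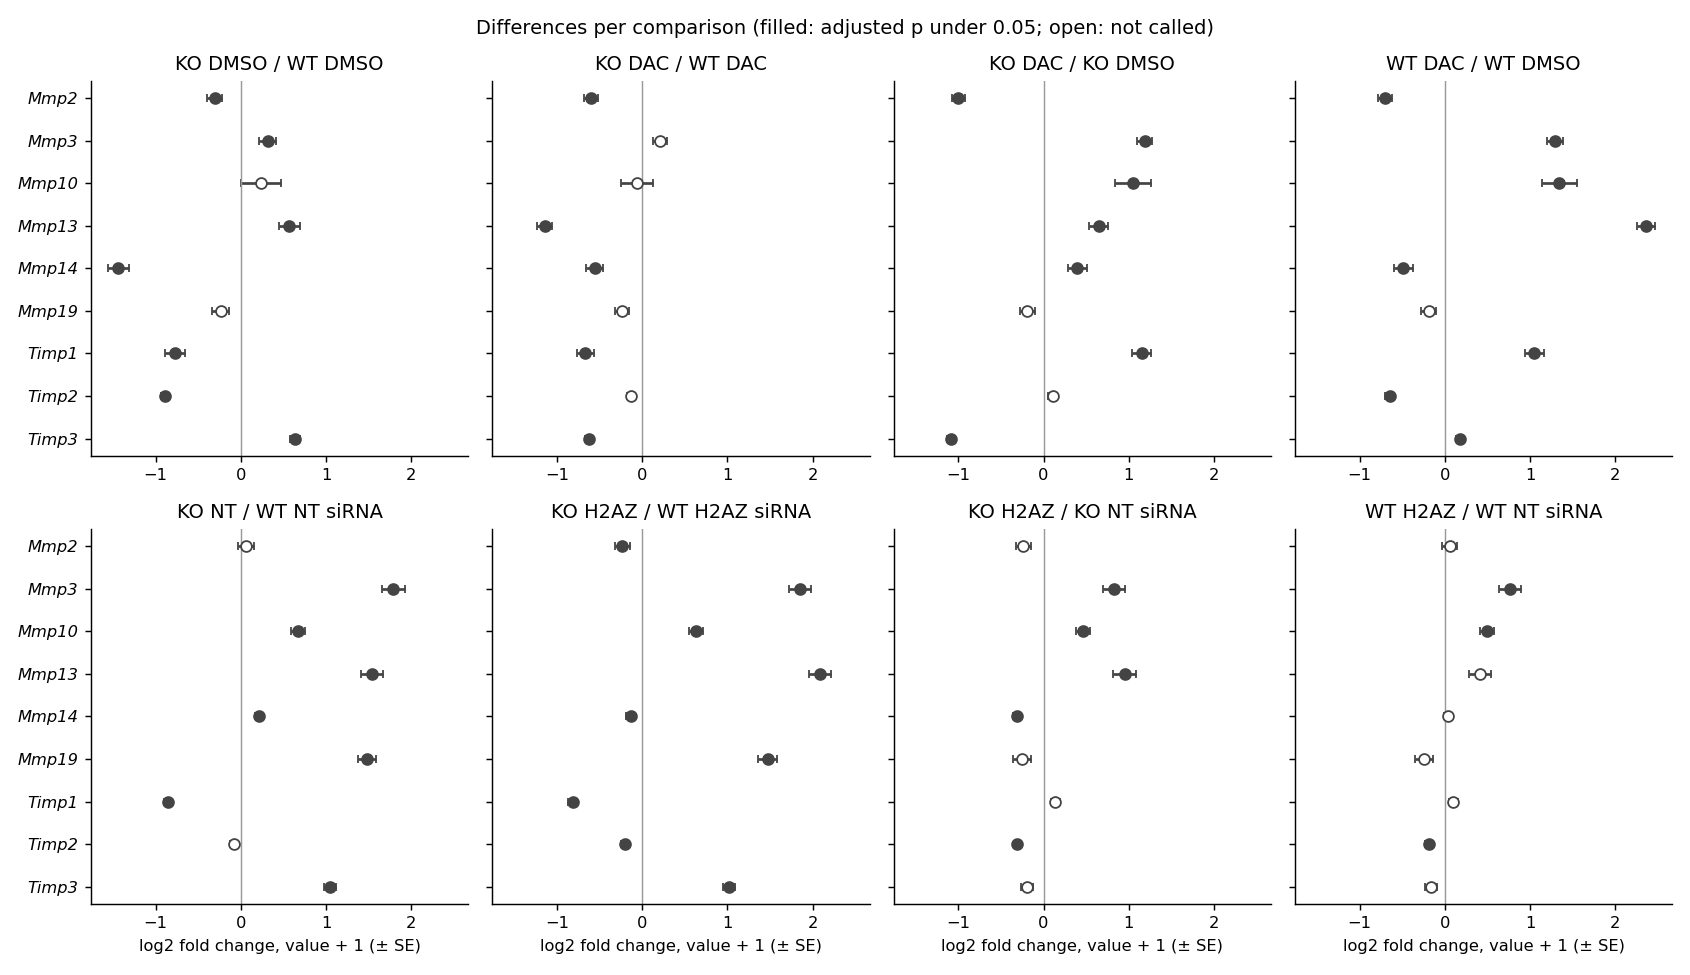
Log2 fold changes of the 9 tested genes (horizontal axes, on log2 of the value plus 1) in 8 comparisons, with points for the fitted value, bars for its SE, filled points for adjusted p under 0.05 and open points for the rest. Mmp3, Mmp10 and Mmp13 lie to the right of 0 in all 4 comparisons of a treatment with its control, and Timp1 lies to the left in all 4 comparisons of KO with WT. Mmp10 entered the test of the DAC table only through its DAC libraries.

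By comparison, 5 of the 9 tested genes were called higher and 2 lower in KO DAC against KO DMSO. In that comparison 45.2% of all 16434 genes tested were called, 23.7% higher and 21.6% lower. Another 5 higher and 3 lower calls were made in WT DAC against WT DMSO, where 28.3% of all genes were called, 14.5% higher and 13.8% lower. The response to DAC differed between genotypes for 4 of the 9 (Mmp14 and Timp2 upwards and Mmp13 and Timp3 downwards in KO minus WT), with 24.1% of all genes called. The median log2 fold change of the 9 genes was 0.40 in KO cells and 0.18 in WT cells, beside 0.01 and -0.01 over all genes. In both genotypes the 5 higher calls and the median include Mmp10, whose call the filter on low values fixed. The 2 genotypes' responses have no libraries in common.

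KO against WT gave 3 higher and 4 lower calls with DMSO, beside 42.4% of all genes called (19.6% higher and 22.9% lower), and 0 higher and 5 lower calls with DAC, beside 22.7% (11.1% and 11.6%). At an unadjusted p under 0.05 stood 8 of the 9 in each of these comparisons, beside 49.8% and 35.1% of all genes, and limma-voom called 6 in each, beside 43.1% and 26%. The genes called lower with DAC were Mmp2, Mmp13, Mmp14, Timp1 and Timp3, and the median over the 9 was -0.23 with DMSO and -0.55 with DAC, beside -0.04 and 0.00 over all genes. Each KO group here is also one of the groups of the DAC comparisons above and shares its libraries with them.

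In the siRNA table, where 12668 genes were tested, 6 of 9 genes were called higher and 1 lower in KO against WT with NT, beside 64.1% of all genes called (23.7% higher and 40.4% lower). With the H2AZ siRNA 5 were called higher and 4 lower, beside 62.9% (20.2% and 42.7%). The medians of the 9 were 0.67 and 0.63, beside -0.10 and -0.12 over all genes. Library medians differed between genotypes in this table, and centring each library on its median moved the share of calls that were higher to 53.1% with NT and 54.1% with the H2AZ siRNA, against 37% and 32.2% without it.

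The H2AZ siRNA gave 3 higher and 2 lower calls of 9 in KO cells, beside 25.5% of all genes called (6.56% higher and 19% lower). In WT cells it gave 2 higher and 1 lower call, beside 15.3% (4.88% and 10.4%). With median centring 59.5% of calls in KO cells and 59.8% in WT cells were higher, against 25.7% and 32% without it. Mmp3 and Mmp10 were called higher and Timp2 lower in either genotype. Their log2 fold changes ranked at the percentiles 99.9, 99.1 and 10.2 of all genes in KO cells and 99.9, 99.3 and 17.4 in WT cells. The KO groups' paired fit called 7 of 9, beside 21.5% of all genes. No gene of the 9 differed in its response between genotypes (0 called by limma or by limma-voom, and 3 at an unadjusted p under 0.05, Mmp2, Mmp13 and Mmp14, beside 8.64% of all genes). At the adjusted threshold limma called 0.00789% of all genes, which is 1 gene, H2afz itself.

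Summed over the 7 Mmp genes and the 3 Timp genes, enzyme RNA per inhibitor RNA stood apart between genotypes in the siRNA table. No test was made on these sums. Mmp RNA per Timp RNA was 0.894 to 1.11 in KO cells given the H2AZ siRNA and 0.845 to 0.887 in KO cells given NT, against 0.421 to 0.441 in WT cells given the H2AZ siRNA and 0.369 to 0.448 in WT cells given NT. In the DAC table the ratio was 0.864 to 0.985 in KO DAC and 0.968 to 1.04 in KO DMSO libraries, against 1 to 1.02 in WT DAC and 1.1 to 1.16 in WT DMSO libraries. The direction of the genotype difference was thus opposite in the 2 tables. In the siRNA table Mmp3, Mmp10 and Mmp13 together made up 84.9 to 110 RPKM of the Mmp sum in KO cells given the H2AZ siRNA and 49.4 to 52.5 RPKM in KO cells given NT, against 22.2 to 25.4 RPKM in WT cells given the H2AZ siRNA and 12.3 to 17.6 RPKM in WT cells given NT. The Timp sum differed too, at 198 ± 6.93 RPKM (SD) in KO and 291 ± 12.4 RPKM in WT cells given NT. With the H2AZ siRNA it was 196 ± 5.77 against 298 ± 2.89 RPKM. Most of that difference was X-linked Timp1, at 120 ± 2.9 against 218 ± 14.5 RPKM with NT. With the H2AZ siRNA Timp1 was at 132 ± 4.11 against 234 ± 1.54 RPKM. The part of sex in the ratio was not tested. These sums are RNA levels, not activities. The 2 tables were normalised separately and were not tested against each other.

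**Figure D4:**
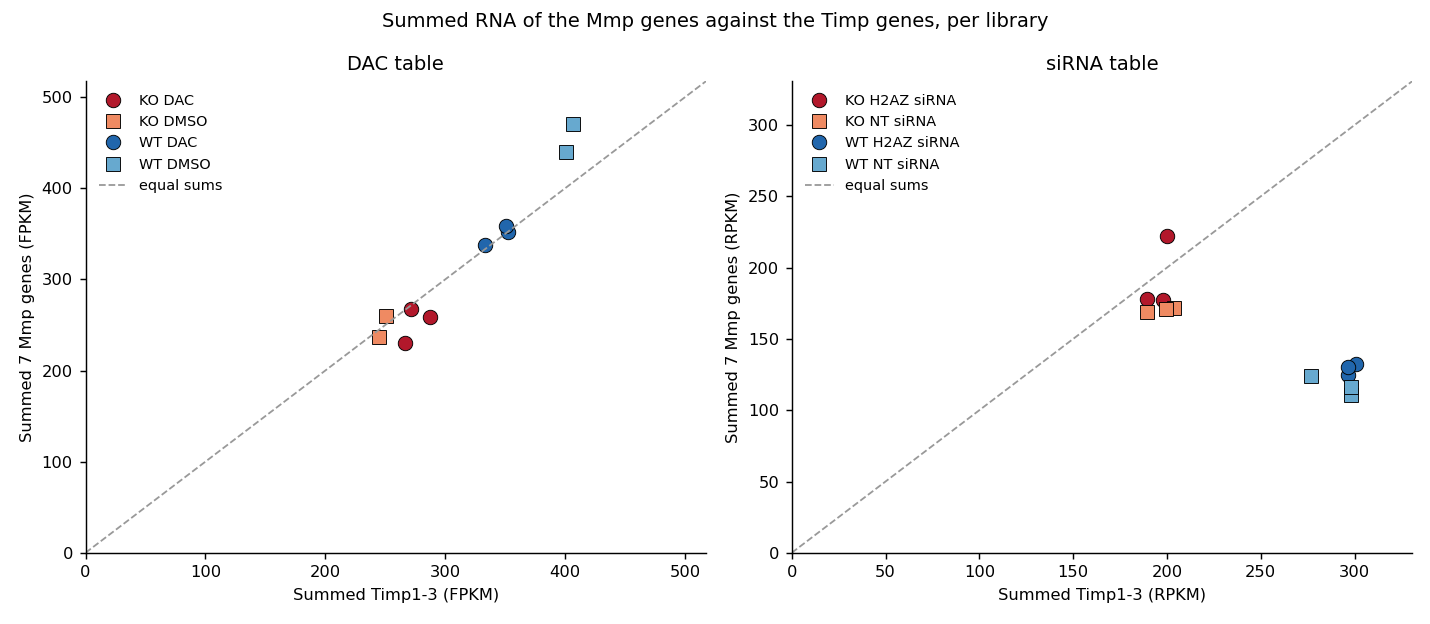
Summed RNA of the 7 Mmp genes (vertical) against that of the 3 Timp genes (horizontal) in each library, in FPKM for the DAC table and RPKM for the siRNA table, with the dashed line at equal sums. In the siRNA table KO libraries lie at 0.845 to 1.11 Mmp per Timp and WT libraries at 0.369 to 0.448.

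Across libraries, the genes most like each of the 9 were taken by the lower of its Pearson correlations over the 10 libraries of the DAC table and the 12 of the siRNA table, among 11906 genes tested in both. Libraries within a table share groups and scaling, so these are descriptions. Mmp10 was most like Mmp3 (0.946 and 0.951), then Hpcal1 and Fosl1, which encodes a subunit of AP-1 (0.928 and 0.916). Mmp3 itself was most like Taldo1 (0.953 and 0.957), a pentose phosphate enzyme, Hpcal1 and Ggta1. Mmp13 was most like Cd34, Carhsp1 and Bscl2, with 0.884 and 0.956 for Cd34.

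Of the other genes, Mmp2 was most like Col6a1, a collagen VI chain (0.991 and 0.884), and Mmp19 was most like Gbf1 (0.943 and 0.949), Dpysl2 and Col1a1. Mmp14 was most like Eef2k, Ahnak2 and Cst3, the last of which encodes the secreted protease inhibitor cystatin C (0.969 and 0.864). Timp1 was most like Mlkl (0.976 and 0.984), Timp2 most like S1pr3 (0.955 and 0.963) and Timp3 most like Spon2 (0.932 and 0.959). The likeness of members to each other depended on the table: Timp1 and Mmp3 correlated at 0.68 over the DAC table but at -0.84 over the siRNA table.

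Other genes of the system were taken as lists, whose counts can be read against the shares of all genes given above. The plasminogen system, whose protease plasmin activates several Mmp precursors, had 8 of 12 genes tested. With DAC, 6 were called higher and 1 lower in KO cells, and 6 higher and 0 lower in WT cells. Of all genes, 23.7% were called higher and 21.6% lower in KO cells, and 14.5% and 13.8% in WT cells. Plaur, the urokinase receptor, had 17.8 ± 2.01 FPKM in WT DAC and 6.27 ± 1.43 FPKM in WT DMSO libraries (log2 fold change 1.38 ± 0.14). With the H2AZ siRNA 3 were called higher and 2 lower in either genotype. All genes stood at 6.56% higher and 19% lower in KO cells and 4.88% and 10.4% in WT cells. Among the list's higher genes was Plau, the urokinase gene, at 16.2 ± 0.846 RPKM against 10.9 ± 0.312 RPKM with NT in KO cells. In WT cells Plau had 22.2 ± 0.292 RPKM against 14.7 ± 0.196 RPKM. Between genotypes with NT, 1 was called higher and 5 lower, beside 23.7% and 40.4% of all genes.

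Of 16 further Mmp genes, 5 were tested with DAC and 3 with siRNA. Mmp23 had 25.5 ± 0.184 FPKM in KO DMSO and 2.19 ± 0.000781 FPKM in WT DMSO libraries (3.06 ± 0.17, adjusted p 2.1e-06), and 3.67 ± 0.779 FPKM in KO DAC libraries. In KO DMSO against WT DMSO Mmp23 was the only 1 of the 5 called higher and 3 were called lower. Of all genes, 19.6% were called higher and 22.9% lower in that comparison. Among the lower genes, Mmp16, a membrane-type Mmp, had 2 ± 0.278 FPKM in KO DMSO and 6.29 ± 0.00652 FPKM in WT DMSO libraries. A list of 9 further genes held other inhibitors but also Pcolce and Pcolce2, which encode procollagen C-proteinase enhancers. Of these 9, 4 were tested in the DAC table, with 1 called higher and 3 lower in the same comparison. Pcolce was among the lower ones, at 83.6 ± 5.34 FPKM in KO DMSO and 183 ± 15.2 FPKM in WT DMSO libraries. Reck, a membrane-anchored inhibitor, had 1.91 ± 0.123 FPKM in KO DMSO and 8.18 ± 0.347 FPKM in WT DMSO libraries (-1.66 ± 0.11), and 4.87 ± 0.599 FPKM in WT DAC libraries.

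The ADAMTS enzymes, which cut proteoglycans and are inhibited by Timp3 had 13 genes tested in the DAC table. With DAC, 1 was called higher and 8 lower in KO cells, and 1 higher and 9 lower in WT cells. Of all genes, 23.7% were called higher and 21.6% lower in KO cells, and 14.5% and 13.8% in WT cells. The list's median log2 fold changes were -1.20 and -0.82, beside 0.01 and -0.01 over all genes. Adamts9 had 1.37 ± 0.0422 FPKM in KO DAC and 13.8 ± 0.336 FPKM in KO DMSO libraries, and Adamts1 had 28.1 ± 0.547 FPKM in WT DAC and 63.2 ± 5.95 FPKM in WT DMSO libraries. Of 9 ADAM enzymes tested, 3 were called higher in either genotype with DAC, with 3 lower in KO cells and 0 in WT cells. The shares of all genes are those given for the ADAMTS enzymes. The convertases that cleave Mmp14 and other precursors had 5 genes tested in each table, and Furin had 18.6 ± 1.46 FPKM in KO DAC and 10.6 ± 0.19 FPKM in KO DMSO libraries (0.75 ± 0.09).

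Of 8 astacin, serine and cysteine proteinases tested in the DAC table, 1 was called higher and 6 lower in KO DMSO against WT DMSO. Of all genes, 19.6% were called higher and 22.9% lower there. Among the list's lower genes was Ctsk, the collagen-cutting cathepsin K, at 1.64 ± 0.348 FPKM and 9.01 ± 0.896 FPKM. The list of inducers of Mmp transcription and their receptors had 14 genes tested in the DAC table. With DAC, 6 were called higher and 3 lower in KO cells, and 9 higher and 1 lower in WT cells. All genes stood at 23.7% higher and 21.6% lower in KO cells and 14.5% and 13.8% in WT cells. Hbegf, an EGF receptor ligand, had 36.7 ± 1.78 FPKM in WT DAC and 10.7 ± 0.924 FPKM in WT DMSO libraries (1.68 ± 0.08), and Il1rl1, the receptor of interleukin 33, had 98.5 ± 9.4 FPKM in KO DAC and 20.6 ± 0.895 FPKM in KO DMSO libraries (2.20 ± 0.12). With the H2AZ siRNA, 2 of 13 were called higher in either genotype, with 4 lower in KO cells and 2 in WT cells. All genes stood at 6.56% higher and 19% lower in KO cells and 4.88% and 10.4% in WT cells.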

How the data were processed

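The authors deposited the DAC table in FPKM and the siRNA table in RPKM. Libraries were made with a stranded total RNA kit, per the labels' protocols, and STAR, Bowtie2, deepTools and mm10 were named, without versions, per the submitters' processing notes. How reads were counted (tool, annotation, use of strand, scaling total) is not given in the sources used here. Gene lengths and library totals were solved from the steps between values, and 100% of the 35023 genes above 0 gave whole reads within 0.01. At this depth 1 read at 1 kb is worth 0.0271 to 0.0364 FPKM and 0.0212 to 0.0313 RPKM. Symbols were matched for 42462 of the 43432 gene IDs, and of 20 symbols listed more than once the entry with the highest mean was kept. Promoter windows are RefSeq's.

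Genes of at least 1 in at least 2 (DAC table) or 3 libraries (siRNA table) were fitted on log2 of the value plus 1 with limma 3.58.1 (R 4.3.3, intensity trend), once per table over its 4 groups, with Benjamini-Hochberg adjustment over all genes of a contrast and a threshold of 0.05. The fit was tested on simulated data. Other steps used Python 3.11.15, numpy 2.4.6, pandas 2.3.3 and matplotlib 3.10.9. The genes and lists were chosen with earlier results of these data known. Named were all 10 genes, label checks, overlapping neighbours, the chromosome 9 cluster, the 3 most similar genes, and per list at most 2 higher and 2 lower called genes by size of change with a mean of at least 5.

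Replicate numbers were checked as pairs by the correlation of deviations from group means. All 3 pairs exceeded 0.1 between KO H2AZ and KO NT libraries (0.156, 0.144 and 0.27), as found in the data and not stated by the labels, and in no other comparison tested. The alternatives tried were limma-voom on recovered reads, a replicate block, a fit of only the groups compared, median centring, a 2-fold minimum, another pseudocount (0.1), other filters (none, or a minimum of 5) and leaving out libraries. Y-linked genes, Xist and the fit of the KO siRNA groups alone were added after the data were seen.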

Additional observations from a re-analysis of the deposited data

Results flagged for a closer look

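The response to DAC differed between KO and WT cells, by the interaction term of the limma fit, for 4 genes. Mmp13 had a KO minus WT difference of -1.71 on the log2 scale, with every DAC library above every DMSO library in both genotypes. For Mmp14 the difference was 0.88, with KO DAC libraries above KO DMSO libraries and WT DAC libraries below WT DMSO libraries. Timp2 had a difference of 0.76, and all 3 WT DAC libraries were below both WT DMSO libraries. Timp3 had a difference of -1.26, and all 3 KO DAC libraries were below both KO DMSO libraries. Each difference rests on all 4 groups. For Timp2 and Mmp13 the larger response was in WT cells, at -0.65 against 0.11 in KO cells for Timp2 and 2.36 against 0.65 for Mmp13. Among the 4 groups are the 2 KO DMSO libraries, whose mesothelial markers summed to 1040 to 1070 FPKM against 111 to 130 FPKM in KO DAC libraries. The part of these markers in the differences was not tested.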

How the results depend on the processing

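Of the 1295 values of single genes computed under alternatives, 1212 kept their direction and their side of the threshold, 34 lost a call, 19 gained one and 30 changed sign, all of them uncalled in the report except Mmp14 in KO H2AZ against WT H2AZ. Counting only calls of at least 2-fold left, of 9 genes and beside the share of all genes, 1 in KO DMSO against WT DMSO (10.4%), 1 in KO DAC against WT DAC (2.21%), 4 in KO DAC against KO DMSO (9.1%), 4 in WT DAC against WT DMSO (3.63%), 2 for the difference of the DAC responses (7.1%), 4 in KO NT against WT NT (5.01%), 4 in KO H2AZ against WT H2AZ (4.59%), and 0 for the H2AZ siRNA in KO cells (0.15%) and 0 in WT cells (0.0474%). Both counts of 4 for DAC against DMSO include Mmp10, whose calls there the filter on low values fixed. Mmp10 is also among the 9 genes behind every other count of DAC against DMSO in this section. Median centring turned Mmp14 in KO H2AZ against WT H2AZ to 0.018 and Timp2 in KO NT against WT NT to 0.040. Mmp10 in KO DAC against WT DAC ran from -0.251 to 0.152 over left-out libraries. The difference of the DAC responses of Mmp19 was -0.004 with a pseudocount of 0.1, -0.003 with median centring, -0.000 with limma-voom and -0.118 to 0.119 over left-out libraries. For the difference of the siRNA responses, Mmp19 had 0.051, 0.023 and 0.080 under those settings and -0.136 to 0.078 over left-out libraries. There Mmp3 ran from -0.085 to 0.155 (-0.113 without both libraries that stand apart), Mmp10 from -0.089 to 0.042 and Timp3 from -0.092 to 0.028. The cause was not tested. With the replicate number as a block, 6, 5, 7, 7 and 4 genes were called in the DAC table (KO DMSO against WT DMSO, KO DAC against WT DAC, KO DAC against KO DMSO, WT DAC against WT DMSO and the difference of responses), beside 39.3%, 18%, 40.7%, 22.5% and 19.9% of all genes. With siRNA the block gave 7, 9, 5, 3 and 0 calls (KO NT against WT NT, KO H2AZ against WT H2AZ, the H2AZ siRNA in KO cells, in WT cells and the difference of responses), beside 66%, 64.6%, 29.3%, 17.9% and 0.0158%. The paired fit of the KO siRNA groups alone called 7, adding Timp1 and Timp3. At 3 reads for Mmp10 and 0 to 5 for Mmp9, folds of the lowest groups are limited by depth.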
